A study of Brassica napus with 10 samples.

Results

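ERDJ3B and SDF2 are co-chaperones of BiP, the HSP70 chaperone of the endoplasmic reticulum (ER), and *B. napus*, an allotetraploid with an A and a C subgenome, carries several copies of each gene. The study's list of ER stress genes names 7 ERDJ3B and 4 SDF2 copies by their arabidopsis orthologs. Those with a row in the deposited raw counts were taken, which gave 9 of the 11 listed copies, 5 of ERDJ3B and 4 of SDF2, out of 59458 genes in the table. The other 2 ERDJ3B copies were not analysed here. All 9 copies passed the filter on low counts, with 22 to 31128 reads per copy and library.

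The libraries came from 3-day-old microspore cultures, in which immature pollen either goes on to form pollen or is diverted to embryogenesis. HS + TSAhigh (3 libraries) and HS + TSAlow (4 libraries) are embryogenic structures from cultures that were given heat stress (HS) at 33 °C for 24 h and 0.5 µM or 0.05 µM trichostatin A (TSA), which inhibits histone deacetylases, followed by culture at 25 °C. They carried a LEC1-GFP embryo identity reporter and were sorted by its fluorescence, and each library was made from 150000 cells. Pollen (3 libraries) came from cultures held at 18 °C without heat or TSA and was not sorted. The paper used the same low response genotype in all experiments and does not state whether the pollen cultures carried the reporter. Heat stress, TSA, sorting, culture temperature, cell type and possibly the reporter line therefore cannot be told apart in a comparison with pollen. The 2 TSA groups differ in dose alone as far as the labels go. The embryo and pollen identity of the libraries was not checked against marker genes, because the sources used here do not pair these gene IDs with such markers.

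BiP folds proteins that enter the ER in cycles of ATP hydrolysis. ERDJ3B is a J-domain protein (HSP40 type) that hands client proteins to BiP and triggers its ATPase, and SDF2 is a small ER protein that binds ERDJ3B and works with it in the same complex. In arabidopsis this complex is known for the maturation of surface immune receptors, its genes are raised by the unfolded protein response, and plants without ERDJ3B form defective anthers at high temperature.

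The library totals ran from 58468526 to 67884748 counts in HS + TSAhigh, from 51838498 to 61458274 in HS + TSAlow and from 93367646 to 109105528 in pollen. Levels are given as CPM (counts relative to the TMM-scaled library size), and are compared between genes only per kb of exon. The ratios of an A to a C copy are the exception and use counts. HS + TSAlow libraries 1 and 4 lay close to each other (r = 0.992 over log2 CPM) and farther from libraries 2 and 3 (0.948 to 0.952), so some results are also given without them. HS + TSAhigh library 1 lay farther from libraries 2 and 3 of its group (0.934 and 0.918) than these from each other (0.970). Its deviations from the group mean went with those of HS + TSAlow libraries 1 and 4 (r = 0.352 and 0.286). HS + TSAlow libraries 1 and 4 also lay nearer to the pollen libraries (r = 0.841 to 0.857) than libraries 2 and 3 did (0.792 to 0.828). The same held for HS + TSAhigh library 1 (0.786 to 0.802), against 0.721 to 0.771 for libraries 2 and 3 of that group. The sets of like libraries thus cross the doses, and their cause was not tested. In bulk libraries fewer cells that express a gene and less RNA per cell cannot be told apart.

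The annotated copies of a family had a common exon structure. Coordinates refer to the Darmor-bzh version 10 genome. ERDJ3B.1 (A04p00600.1_BnaDAR) lies on A04 at 357370 to 359645, and ERDJ3B.4 (C04p30630.1_BnaDAR) on C04 at 31514856 to 31517119. ERDJ3B.2 (A07p26000.1_BnaDAR) lies on A07 at 19738970 to 19741443 and ERDJ3B.5 (C06p28290.1_BnaDAR) on C06 at 31960461 to 31966403. ERDJ3B.3 (A09p54470.1_BnaDAR) lies on A09 at 46269383 to 46271977. Each ERDJ3B copy was annotated with 10 exons, and 6 of the 8 internal exons had the same length in all 5 copies. ERDJ3B.5 stood apart by a first intron of 3497 bp, against 73 to 86 bp in the other 4 copies.

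SDF2.1 (A04p19520.1_BnaDAR) lies on A04 at 14764888 to 14766968, and SDF2.3 (C04p55110.1_BnaDAR) on C04 at 54030103 to 54031882. SDF2.2 (A09p55870.1_BnaDAR) lies on A09 at 46927668 to 46929668, and SDF2.4 (C08p38860.1_BnaDAR) on C08 at 33717348 to 33719082. All 4 SDF2 copies have 6 exons, with internal exons of 141, 141, 50 and 130 bp in each. The annotated first exon had 306 and 299 bp in the A copies SDF2.1 and SDF2.2, against 108 and 111 bp in the C copies SDF2.3 and SDF2.4. No copy overlapped another gene of the table. Reads from stretches that copies share can be assigned to either copy or lost, so the values of single copies carry this uncertainty and the family sums are given beside them. Neither the ERDJ3B sum nor the values of single ERDJ3B copies account for reads shared with the 2 listed copies that have no row. By their IDs these lie on C04, as ERDJ3B.4 does, and on C08.

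All 9 co-chaperone copies had lower levels in embryogenic structures than in pollen. Their libraries did not overlap those of pollen. The share of all tested genes without such overlap was not counted, so the lack of overlap is description only. Relative to pollen, all 9 copies were called lower in HS + TSAhigh and 7 in HS + TSAlow, and 0 were called higher in either (edgeR, adjusted p at most 0.05). Of the 45264 genes tested, 18.8% were lower and 27.5% higher in HS + TSAhigh than in pollen, and 17.4% were lower and 26.4% higher in HS + TSAlow. The median log2 fold change of the copies was -1.81 in HS + TSAhigh and -1.255 in HS + TSAlow, against 0.093 and 0.105 over all genes tested. Between the 2 doses, 1 copy, ERDJ3B.4, was called higher in HS + TSAhigh, where 4.94% of all genes were, and 0 copies were called lower, where 5.46% were. An unadjusted p under 0.05 between the doses was seen for 4 of the 9 copies and for 12516 of all 45264 genes tested.

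**Figure D1:**
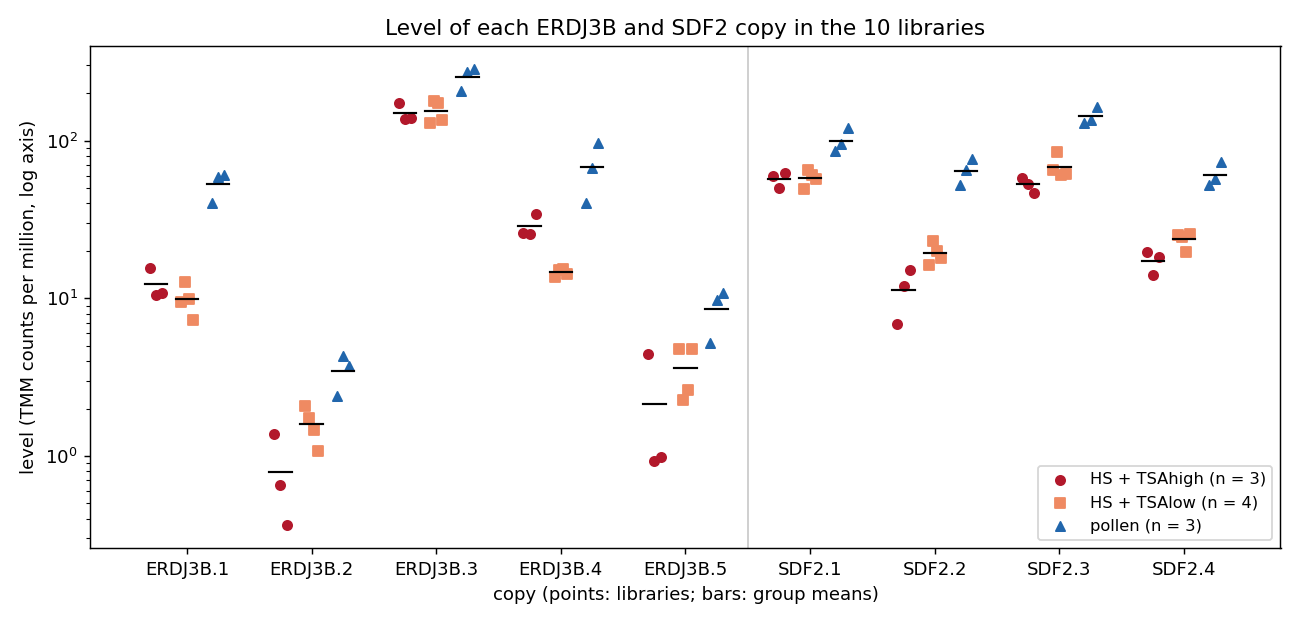
Level of each ERDJ3B and SDF2 copy in CPM on a log axis, with 1 point per library (HS + TSAhigh n = 3, HS + TSAlow n = 4, pollen n = 3) and bars at the group means. For every copy all pollen libraries lie above all HS + TSA libraries, and only ERDJ3B.4 has every HS + TSAhigh library (25.5 to 34.4 CPM) above every HS + TSAlow library (13.6 to 15.4 CPM). How many of all tested genes separate in this way was not counted, so the separation is description only.

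ERDJ3B.3, on A09, was the copy with the highest mean level per kb of exon in every group, although SDF2.3 was higher in pollen libraries 1 and 3. It had 173, 136 and 140 CPM in HS + TSAhigh, 129, 179, 174 and 135 CPM in HS + TSAlow, and 207, 271 and 286 CPM in pollen. The HS + TSA libraries of both doses covered the same range and stayed below pollen. It fell by 0.76 on the log2 scale in HS + TSAhigh (SE 0.18, adjusted p = 0.00448) and fell by 0.72 in HS + TSAlow (SE 0.17, adjusted p = 0.00419), the smallest change from pollen of the 9 copies in both cases. Without HS + TSAlow libraries 1 and 4 its log2 fold change in HS + TSAlow was -0.53 (SE 0.18, adjusted p = 0.0446). Between the doses its log2 fold change was -0.04 (SE 0.17, adjusted p = 0.904), a value whose sign turned under some settings.

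ERDJ3B.1 and ERDJ3B.4, the copies on A04 and C04, overlapped in pollen and were both lower in embryogenic structures. ERDJ3B.1 had 15.5, 10.5 and 10.8 CPM in HS + TSAhigh, 9.44, 12.7, 9.91 and 7.33 CPM in HS + TSAlow, and 40.5, 58.9 and 60.7 CPM in pollen. The 2 doses overlapped, and every HS + TSA library was far below the lowest pollen library. ERDJ3B.1 fell by 2.12 in HS + TSAhigh (SE 0.26, adjusted p = 5.05e-05) and fell by 2.44 in HS + TSAlow (SE 0.23, adjusted p = 1.18e-05), the largest drop of any copy at the low dose. Between the doses its log2 fold change was 0.32 (SE 0.23, adjusted p = 0.403), and it ran from 0.12 (without HS + TSAhigh library 1) to 0.46 with single libraries left out.

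ERDJ3B.4 had 25.8, 25.5 and 34.4 CPM in HS + TSAhigh, 13.6, 15.2, 15.4 and 14.4 CPM in HS + TSAlow, and 40.3, 66.9 and 96.9 CPM in pollen. The HS + TSAlow libraries lay within a narrow range (CV 5.5%), every HS + TSAhigh library was above them, and every pollen library was higher still. The copy fell by 1.25 in HS + TSAhigh (SE 0.27, adjusted p = 0.00243) and fell by 2.22 in HS + TSAlow (SE 0.25, adjusted p = 3.52e-05) relative to pollen. It was the copy called between the doses, 0.97 higher on the log2 scale in HS + TSAhigh (SE 0.24, adjusted p = 0.029). The value stayed between 0.81 and 1.04 under all 22 alternatives. The call was lost with limma-voom (adjusted p = 0.0776), without HS + TSAlow libraries 1 and 4 (0.148), without any HS + TSAlow library singly (0.0536 to 0.0775), and without HS + TSAhigh library 2 (0.0562) or 3 (0.0991).

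ERDJ3B.2 and ERDJ3B.5, the copies on A07 and C06, had the lowest levels. ERDJ3B.2 had 1.37, 0.654 and 0.363 CPM in HS + TSAhigh, 2.08, 1.74, 1.45 and 1.08 CPM in HS + TSAlow, and 2.39, 4.30 and 3.74 CPM in pollen. All HS + TSA libraries were below all pollen libraries, and the doses overlapped in 1 HS + TSAhigh library. It fell by 2.12 in HS + TSAhigh (SE 0.58, adjusted p = 0.0101). In HS + TSAlow its log2 fold change was -1.13 (SE 0.51, adjusted p = 0.0946), which missed the threshold here and passed with DESeq2 (adjusted p = 0.0456), with limma-voom (0.0449) and in a fit of those 2 groups alone (0.0277).

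ERDJ3B.5 varied most within the embryogenic groups. It had 4.45, 0.929 and 0.989 CPM in HS + TSAhigh, 4.74, 2.27, 2.64 and 4.75 CPM in HS + TSAlow, and 5.18, 9.78 and 10.8 CPM in pollen. HS + TSAhigh library 1 and HS + TSAlow libraries 1 and 4 were at like levels, above the other embryogenic libraries and just below the lowest pollen library. The copy fell by 2.01 in HS + TSAhigh (SE 0.62, adjusted p = 0.0187). That call was lost without HS + TSAhigh library 2 (adjusted p = 0.0522) or 3 (0.0588) and without pollen library 2 (0.05045) or 3 (0.058). Without HS + TSAhigh library 1 the copy fell by 3.16 (adjusted p = 0.000476). In HS + TSAlow its log2 fold change was -1.26 (SE 0.55, adjusted p = 0.0847), and it passed with DESeq2 (0.0414), with limma-voom (0.028), in a fit of those 2 groups alone (0.0138) and without HS + TSAhigh library 1 (0.0157).

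Between the doses ERDJ3B.2 and ERDJ3B.5 had log2 fold changes of -0.99 (SE 0.53, adjusted p = 0.251) and -0.76 (SE 0.57, adjusted p = 0.421). Both values moved with single libraries. With 1 library left out, ERDJ3B.2 ran from -1.64 (without HS + TSAhigh library 1) to -0.65 (without library 3 of that group) and was called in no case. ERDJ3B.5 was -1.90 without HS + TSAhigh library 1 (SE 0.47, adjusted p = 0.0233), -0.41 without library 2 and -0.42 without library 3, and without HS + TSAlow libraries 1 and 4 it was -0.21 (SE 0.68, adjusted p = 0.9).

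The 4 SDF2 copies all fell against pollen in both groups, SDF2.2 to 17.6% and SDF2.1 to 57.3% of the mean pollen level in HS + TSAhigh. SDF2.1, on A04, changed least. It had 59.6, 50.02 and 62.5 CPM in HS + TSAhigh, 49.7, 64.7, 60.17 and 57.4 CPM in HS + TSAlow, and 86.3, 94.8 and 119.6 CPM in pollen. The doses overlapped completely. It fell by 0.80 in HS + TSAhigh (SE 0.16, adjusted p = 0.00196) and fell by 0.79 in HS + TSAlow (SE 0.15, adjusted p = 0.00145), and the difference between the doses was -0.01 (SE 0.15, adjusted p = 0.965), whose sign turned under RLE scaling and other settings.

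SDF2.3, on C04, had 58.1, 53.4 and 46.9 CPM in HS + TSAhigh, 65.3, 85.3, 60.5 and 61.1 CPM in HS + TSAlow, and 128.6, 135.6 and 163.5 CPM in pollen. Every HS + TSAhigh library was below every HS + TSAlow library, by a small margin. It fell by 1.43 in HS + TSAhigh (SE 0.17, adjusted p = 4.73e-05) and fell by 1.07 in HS + TSAlow (SE 0.16, adjusted p = 0.000233). The difference between the doses was -0.37 (SE 0.16, adjusted p = 0.158) and did not pass. It was -0.24 without HS + TSAlow library 2.

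SDF2.2, on A09, fell most. It had 6.82, 11.96 and 15.2 CPM in HS + TSAhigh, 16.3, 23.1, 20.0 and 18.1 CPM in HS + TSAlow, and 52.4, 64.7 and 76.0 CPM in pollen. The 3 groups did not overlap, although the highest HS + TSAhigh and the lowest HS + TSAlow library were close. It fell by 2.51 in HS + TSAhigh (SE 0.28, adjusted p = 2.94e-05), the largest change of any copy, and fell by 1.73 in HS + TSAlow (SE 0.25, adjusted p = 0.000198).

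The log2 difference of SDF2.2 between the doses was -0.77 (SE 0.25, adjusted p = 0.0727), which missed the threshold. It passed with the replicate number as a block (-0.86, SE 0.20, adjusted p = 0.0424) and without HS + TSAhigh library 3 (-1.04, adjusted p = 0.0438), and it was -0.51 (adjusted p = 0.118) without HS + TSAhigh library 1.

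SDF2.4, on C08, had 19.6, 14.1 and 18.2 CPM in HS + TSAhigh, 25.1, 24.4, 19.6 and 25.7 CPM in HS + TSAlow, and 52.3, 57.1 and 72.7 CPM in pollen. The doses overlapped in HS + TSAhigh library 1 and HS + TSAlow library 3, which were level. SDF2.4 fell by 1.81 in HS + TSAhigh (SE 0.20, adjusted p = 2.26e-05) and fell by 1.36 in HS + TSAlow (SE 0.18, adjusted p = 0.000104). Between the doses its log2 fold change was -0.46 (SE 0.18, adjusted p = 0.124).

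**Figure D2:**
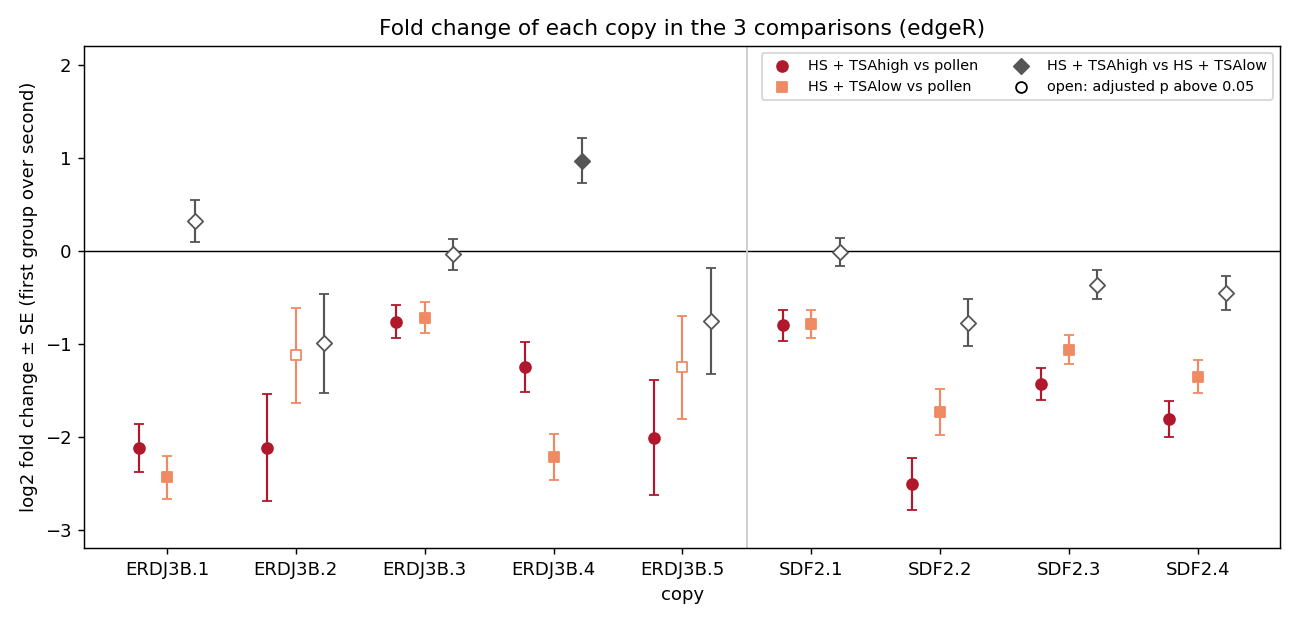
log2 fold change of each copy with its standard error, in HS + TSAhigh against pollen, HS + TSAlow against pollen and HS + TSAhigh against HS + TSAlow (edgeR, first group over second). Open symbols did not pass the adjusted p of 0.05. All values against pollen are below 0, from -2.51 to -0.72, and the values between the doses run from -0.99 to 0.97 with ERDJ3B.4 as the filled symbol.

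When the counts of the copies with a row were added up, both families were lower than in pollen at either dose. The ERDJ3B sum holds 5 of the 7 listed copies. Summed ERDJ3B had 220, 174 and 187 CPM in HS + TSAhigh, 159, 211, 203 and 162 CPM in HS + TSAlow, and 295, 411 and 458 CPM in pollen. It fell by 1.00 in HS + TSAhigh (SE 0.18, adjusted p = 0.000979) and fell by 1.08 in HS + TSAlow (SE 0.17, adjusted p = 0.000385), and the difference between the doses was 0.07 (SE 0.17, adjusted p = 0.82). The family sum was thus not called between the doses although ERDJ3B.4 was, and most of the sum came from ERDJ3B.3.

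Summed SDF2 had 144, 129 and 143 CPM in HS + TSAhigh, 156, 198, 160 and 162 CPM in HS + TSAlow, and 320, 352 and 432 CPM in pollen. The HS + TSAhigh libraries all lay below the HS + TSAlow libraries. Summed SDF2 fell by 1.41 in HS + TSAhigh (SE 0.15, adjusted p = 1.97e-05) and fell by 1.12 in HS + TSAlow (SE 0.14, adjusted p = 6.29e-05). The difference between the doses was -0.28 (SE 0.14, adjusted p = 0.203), so a change of the family between the doses was not called.

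The order of the copies by mean level per kb was led by the same 3 copies in all groups, ERDJ3B.3, SDF2.3 and SDF2.1, and closed by ERDJ3B.5 and ERDJ3B.2. ERDJ3B.3 averaged 104 ± 13.8 CPM per kb in HS + TSAhigh (SD, n = 3), 107 ± 18.0 in HS + TSAlow (n = 4) and 176 ± 28.9 in pollen (n = 3). SDF2.3 averaged 64.1 ± 6.86 CPM per kb in HS + TSAhigh, 82.7 ± 14.2 in HS + TSAlow and 173 ± 22.5 in pollen, so that its libraries overlapped those of ERDJ3B.3 in pollen and HS + TSAlow and not in HS + TSAhigh. ERDJ3B.3 stood above 97.0% of the tested genes in HS + TSAhigh, 96.6% in HS + TSAlow and 98.8% in pollen. ERDJ3B.2 stood above 15.8%, 24.8% and 43.0% of them in the same groups.

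In the middle of the order ERDJ3B.4 changed place, at rank 4 of the 9 copies in HS + TSAhigh and at rank 6 in both HS + TSAlow and pollen. It averaged 23.1 ± 4.09 CPM per kb in HS + TSAhigh, where its libraries overlapped those of the next copy, SDF2.4 (19.9 ± 3.29). In HS + TSAlow it averaged 11.8 ± 0.65, below all libraries of SDF2.2 and above all libraries of ERDJ3B.1. In pollen it averaged 54.9 ± 22.8 and overlapped both of these neighbours.

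The make-up of the ERDJ3B family, taken as its 5 counted copies, differed between pollen and embryogenic structures. ERDJ3B.3 gave 74.5% (72.0 to 76.0%) of the family's level per kb in HS + TSAhigh, 81.6% (79.0 to 83.6%) in HS + TSAlow and 62.6% (58.8 to 66.7%) in pollen, with no overlap between the groups. The share of ERDJ3B.1 was 7.24% in HS + TSAhigh, 6.22% in HS + TSAlow and 15.6% in pollen. ERDJ3B.4 held 16.8% in HS + TSAhigh (13.3 to 20.7%), 9.18% in HS + TSAlow (8.19 to 10.11%) and 18.8% in pollen (15.2 to 23.3%), so its share at the high dose overlapped that in pollen.

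In the SDF2 family, SDF2.1 gave 35.1% (32.7 to 37.8%) of the level per kb in HS + TSAhigh, 28.9% (26.5 to 32.0%) in HS + TSAlow and 22.8% (22.6 to 23.3%) in pollen. SDF2.2 gave 7.30%, 10.0% and 15.3% in the same order of groups, and SDF2.3 gave 44.0%, 45.8% and 44.2%. SDF2.1 thus took a larger share of the embryogenic libraries and SDF2.2 a smaller one, while SDF2.3 kept the largest share in each group. The shares are descriptions with no test. The annotated exon length enters them, and without division by length SDF2.1 had the larger mean count share than SDF2.3 in HS + TSAhigh, 41.3% against 38.1%.

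**Figure D3:**
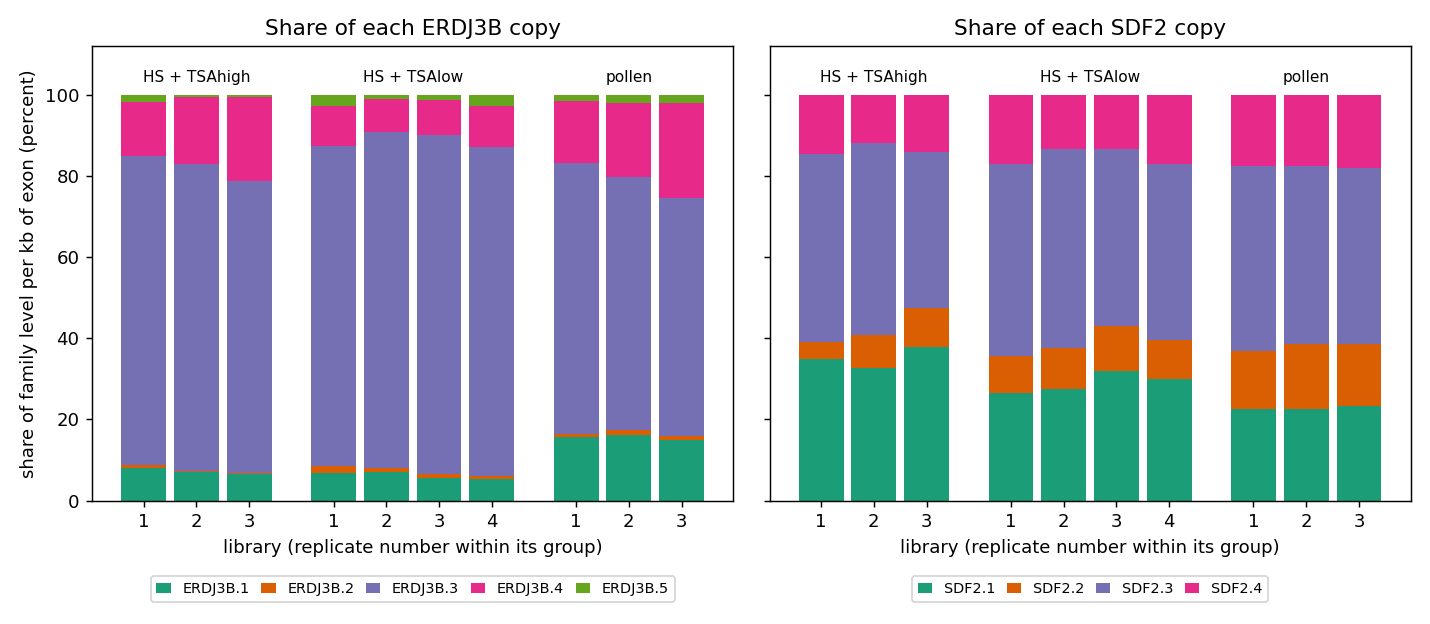
Share of each copy in the summed level per kb of exon of the counted copies of its family, in percent. Stacked bars, with 1 bar per library, show ERDJ3B on the left and SDF2 on the right. ERDJ3B.3 makes up 72.0 to 83.6% of the bars of the embryogenic libraries and 58.8 to 66.7% of those of pollen, and SDF2.1 is widest in HS + TSAhigh.

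An A and a C copy were paired by the chromosomes they lie on and compared within each library, as the log2 ratio of their counts. Exon length was not divided out, so the sign of a ratio does not show which copy had the higher level per kb. Length cancels in the differences between groups. Whether the paired copies correspond by sequence was not checked. ERDJ3B.3 has no counted partner and was left out. The 4 pairs and 3 comparisons gave 12 exact two-sided permutation tests, of which 0 passed after adjustment. An exact test of 3 against 3 libraries cannot give a p below 0.1, nor 1 of 3 against 4 a p below 0.0286. A pass after adjustment needed most of the 12 tests to reach the lower of these values, so 0 passing says little about the ratios. ERDJ3B.1 to ERDJ3B.4 was -1.23 ± 0.47 in HS + TSAhigh, -0.60 ± 0.30 in HS + TSAlow and -0.28 ± 0.35 in pollen (SD). The difference between the doses was -0.63 (exact p = 0.114, adjusted p = 0.274) and that between HS + TSAhigh and pollen was -0.94 (exact p = 0.1, adjusted p = 0.274). Every HS + TSAhigh library had a lower ratio than every pollen library.

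SDF2.1 to SDF2.3 was 0.12 ± 0.26 in HS + TSAhigh, -0.22 ± 0.20 in HS + TSAlow and -0.52 ± 0.06 in pollen. Per kb of exon SDF2.1 averaged 51.4 and SDF2.3 64.1 CPM in HS + TSAhigh, so the positive ratio there does not place SDF2.1 higher. All embryogenic libraries had a higher ratio than all pollen libraries, by 0.63 in HS + TSAhigh (exact p = 0.1, adjusted p = 0.274) and by 0.29 in HS + TSAlow (exact p = 0.0857, adjusted p = 0.274). SDF2.2 to SDF2.4 was -0.67 ± 0.74 in HS + TSAhigh, -0.30 ± 0.32 in HS + TSAlow and 0.08 ± 0.09 in pollen, and HS + TSAhigh library 1, at -1.52, lay far below the other 2 libraries of its group (-0.24 and -0.26). Per kb of exon SDF2.2 averaged 60.1 and SDF2.4 69.8 CPM in pollen. ERDJ3B.2 to ERDJ3B.5 differed by 0.06 in HS + TSAhigh and by 0.14 in HS + TSAlow from pollen, within the spread of the libraries.

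**Figure D4:**
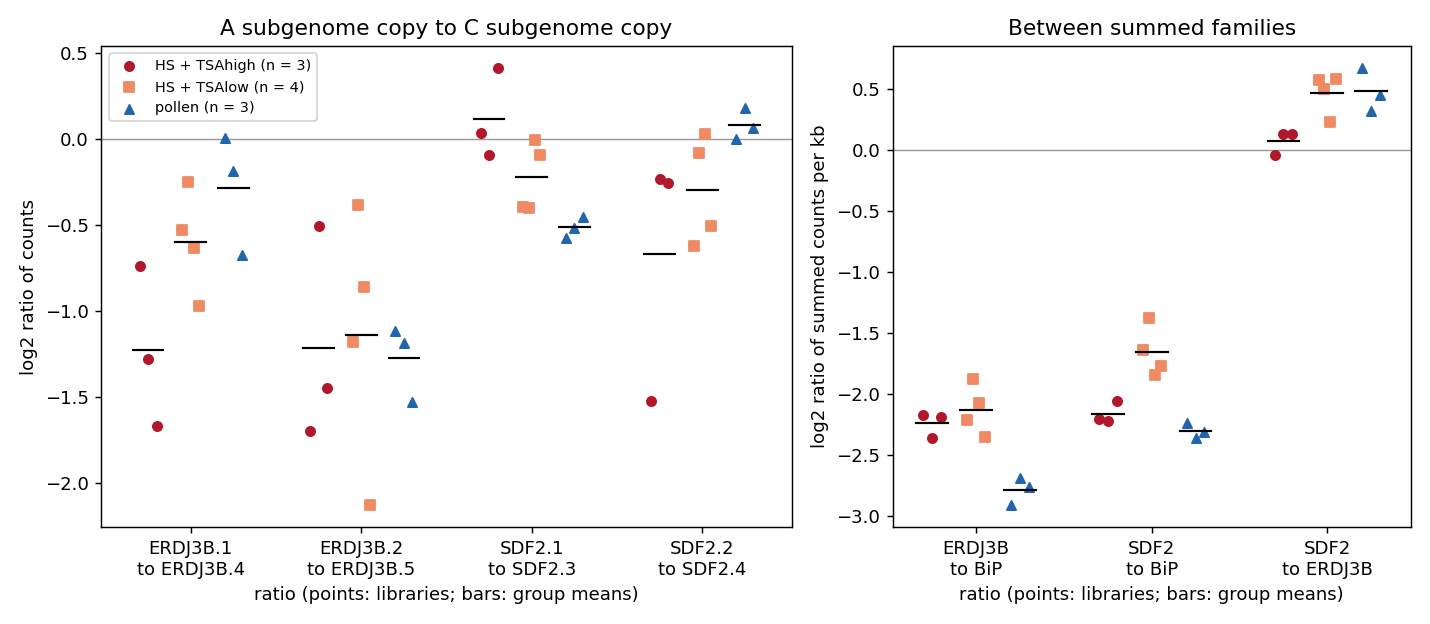
log2 ratios within each library, with 1 point per library and bars at the group means. Left, counts of the A copy over the C copy for 4 pairs. Right, summed ERDJ3B and SDF2 over summed BiP and SDF2 over ERDJ3B, per kb of exon. All 7 embryogenic libraries have a higher ERDJ3B to BiP ratio (-2.36 to -1.87) than the 3 pollen libraries (-2.91 to -2.68).

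BiP, the chaperone that both co-chaperones serve, was also lower in embryogenic structures. The 8 counted BiP copies together averaged 652 ± 46.6 CPM per kb in HS + TSAhigh, 564 ± 37.8 in HS + TSAlow and 1937 ± 332 in pollen (SD). Of these copies, 6 were called lower in HS + TSAhigh and 8 in HS + TSAlow than in pollen (edgeR), and 0 were called higher. Their median log2 fold changes were -1.55 and -1.63.

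Within a library the log2 ratio of summed ERDJ3B to summed BiP was -2.24 ± 0.10 in HS + TSAhigh, -2.13 ± 0.20 in HS + TSAlow and -2.78 ± 0.12 in pollen. It was higher than in pollen in all 7 embryogenic libraries, by 0.55 in HS + TSAhigh (exact p = 0.1, adjusted p = 0.129) and by 0.66 in HS + TSAlow (exact p = 0.0286, adjusted p = 0.0857 over the 9 tests of these ratios). Summed SDF2 to summed BiP was -2.16 ± 0.09 in HS + TSAhigh, -1.65 ± 0.21 in HS + TSAlow and -2.30 ± 0.06 in pollen. The difference from pollen was 0.14 in HS + TSAhigh (exact p = 0.1, adjusted p = 0.129) and 0.65 in HS + TSAlow (exact p = 0.0286, adjusted p = 0.0857). Every HS + TSAhigh library was below every HS + TSAlow library, by 0.51 on average (exact p = 0.0286, adjusted p = 0.0857).

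The log2 ratio of summed SDF2 to summed ERDJ3B was 0.08 ± 0.10 in HS + TSAhigh, 0.47 ± 0.17 in HS + TSAlow and 0.49 ± 0.18 in pollen. HS + TSAhigh differed from pollen by -0.41 (exact p = 0.1, adjusted p = 0.129) and from HS + TSAlow by -0.39 (exact p = 0.0571, adjusted p = 0.129), with every HS + TSAhigh library below the others in both cases. HS + TSAlow differed from pollen by -0.01 (exact p = 1.0). None of the 9 tests of these ratios passed after adjustment, which needed most of the 9 to reach the smallest possible p.

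The other genes of the ER stress list with counts, 43 in number and the BiP copies included, held genes called in either direction and genes that did not pass. Of these, 20 were called lower and 3 higher in HS + TSAhigh, and 23 lower and 3 higher in HS + TSAlow (edgeR), with median log2 fold changes of -0.74 and -0.70. The lectin chaperones calnexin and calreticulin (7 genes) had 5 lower in HS + TSAhigh and 4 in HS + TSAlow. The protein disulfide isomerases (6 genes), which form disulfide bonds in the ER, had 0 lower and 1 higher in HS + TSAhigh, and 2 lower and 1 higher in HS + TSAlow. The 18 genes for stress sensors, site proteases and transcription factors (such as IRE1a, S1P and bZIP17) had 7 lower and 0 higher in each group. The 4 genes for ER export and calcium had 2 lower and 2 higher in each group. Their log2 fold changes ran from -1.48 to 1.96 in HS + TSAhigh and from -1.40 to 2.04 in HS + TSAlow. Between the doses 2 of the 43 genes were called higher in HS + TSAhigh and 0 lower.

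Over the 10 libraries the genes of the list whose log2 level was most like that of summed ERDJ3B were CNX1.6 (Pearson r = 0.986), BiP2.3 (0.977) and CNX1.4 (0.97). Of the genes tested other than the copies in the sum, 1, 9 and 22 were as high or higher, the gene itself included. For summed SDF2 they were BiP2.1 (0.973), BiP2.3 (0.955) and BiP3.2 (0.952), with 32, 183 and 220 tested genes as high or higher, the SDF2 copies again left out. The 2 family sums correlated with each other by 0.934. These are descriptions over libraries that fall into pollen and embryogenic groups.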

How the data were processed

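RNA was measured by RNA-seq in 10 libraries. Alignment by the authors used STAR and the Darmor-bzh genome (version 10), and featureCounts assigned the reads to annotated exons. For these tools the submitters' notes list versions 2.7.10a (STAR) and 1.5.2 (Subread), whereas the methods of the paper list others. The deposited counts are raw counts per gene, and the deposited normalized counts are a signal that the authors scaled with DESeq2 and that served as an alternative. Log2 fold changes and p-values in the deposited comparison tables were not used. From the 61170 deposited rows, 1712 repeated ones were removed. Between 63.2% and 73.5% of counts of 20 or more were even, as when both mates of a pair are counted, so depth overstates the number of fragments and its precision covers counting error only.

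Counts were tested with edgeR 4.0.16 in R 4.3.3 (filterByExpr, TMM, robust quasi-likelihood, all 10 libraries in 1 fit, group only), with Benjamini-Hochberg adjustment over 45264 genes and a threshold of 0.05. The standard error is the fold change over the square root of F. Ratios were compared by exact permutation tests over libraries (numpy 2.4.6). Alternatives were DESeq2 1.42.0, limma 3.58.1 with voom, other scalings, filters and library sets. The scripts were tested on simulated data.

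The members, lists and tests were chosen with earlier results of these data known. All members are named. Of the other listed genes, BiP copies and the 3 most like each family sum are named. The paper speaks of biological replicates, and the labels number the libraries as replicates. Same-numbered HS + TSAhigh and HS + TSAlow libraries deviated together from their group means (r = 0.352, 0.135 and 0.207). The replicate number enters 1 alternative, the replicate block, and no other fit or test. Libraries of unlike number also deviated together. HS + TSAlow 4 went with HS + TSAhigh 1 (r = 0.286). HS + TSAhigh 2 went more with HS + TSAlow 3 (0.189) than with its own number, and HS + TSAhigh 3 more with HS + TSAlow 2 (0.212). A pairing by number is thus not established. Between same-numbered pollen and HS + TSA libraries the values were -0.001 to 0.102, which gives no pairing.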

Additional observations from a re-analysis of the deposited data

Results flagged for a closer look

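Summed SDF2 in HS + TSAlow library 2 was 197.5 CPM, far from the other 3 libraries of the group (156 to 162 CPM). It was the 1 such case among 28 sets of 4 libraries checked (levels, ratios and shares), and chance alone gives about 1 in 20. Without that library the difference of summed SDF2 between HS + TSAhigh and HS + TSAlow was the closest to 0 of all alternatives, at -0.20.

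ERDJ3B.4 was flagged because it was called between the doses, with a log2 fold change of 0.97 in HS + TSAhigh over HS + TSAlow (edgeR, adjusted p = 0.029). It is the same result as given above and not a further test. The call depended on single libraries, as given with the values of that copy.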

How the results depend on the processing

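Against pollen, all 9 copies and both family sums kept a negative log2 fold change under every alternative run. The number of copies called lower was 8 or 9 in HS + TSAhigh and 7 to 9 in HS + TSAlow, and 0 were called higher.

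Between the doses the calls were less stable. Of the copies, 1 was called lower in HS + TSAhigh with the replicate block (SDF2.2), where 0 were without it, and 0 to 1 when single libraries were left out. The number called higher was 0 with limma-voom and with HS + TSAlow libraries 1 and 4 averaged or left out together, and 0 to 1 when single libraries were left out. The replicate block changed no other call. Near-zero differences between the doses turned their sign. ERDJ3B.3 was 0.0046 with the deposited normalized counts and -0.16 to 0.040 with single libraries left out. SDF2.1 was 0.023 with DESeq2, with RLE scaling (0.0228) and, at 0.0237, with the deposited normalized counts, and -0.082 to 0.077 with single libraries left out. Summed ERDJ3B was -0.099 without HS + TSAlow libraries 1 and 4 and -0.027 to 0.15 with single libraries left out. With single libraries left out, the difference of the ERDJ3B.2 to ERDJ3B.5 ratio ran from -0.30 to 0.30 (HS + TSAhigh against pollen), -0.11 to 0.47 (HS + TSAlow against pollen) and -0.43 to 0.17 (between the doses). SDF2.2 to SDF2.4 ran from -0.59 to 0.0502 between the doses, and summed SDF2 to summed ERDJ3B from -0.093 to 0.082 in HS + TSAlow against pollen. The other ratios kept their sign, and none passed after adjustment under any alternative. With the replicate block, or with fewer libraries, none could have passed whatever the values, so this says nothing about stability. The causes were not tested. Without division by length, 13 of 27 mean shares moved by more than the spread between libraries.

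ERDJ3B.2 and ERDJ3B.5 had the fewest reads of the 9 copies and the widest errors. The part of depth in these errors was not tested.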
